A study of Mus musculus with 14 samples.

Results

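Axon guidance cues are secreted or membrane-bound ligands that steer growing axons and migrating cells through receptors on the cell surface. Semaphorins signal through plexins, with neuropilins as co-receptors for most class 3 members. Netrins signal through Dcc and the Unc5 receptors, Slits through Robos, and ephrins through Eph receptor tyrosine kinases. Oligodendrocyte precursor cells (OPCs) use the same cues while they migrate through the developing brain, and several of the genes are regulated again when the cells begin to make myelin. The genes described here are 70 ligands and receptors of these families, 37 ligands and 33 receptors, out of 15565 genes tested. They were chosen by their symbols (Sema3 to Sema7, Plxn, Nrp, Efn, Eph, Slit, Robo, Ntn, Ntng, Unc5 and Dcc) and by a mean of at least 10 normalised counts over all libraries. Of 71 symbols that matched, Robo3 was left out at a mean of 5.64, with libraries between 0 and 19.6, and Ntn5 was the lowest member, at a mean of 16.9. Every group mean of every member was above the minimum of 10.

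RNA was sequenced from brains of mice at postnatal day 8. Papain-dissociated cells were bound to CD140a (Pdgfra) microbeads, called the OPC sort here, or to O4 microbeads, which bind immature oligodendrocytes. Control mice (2afl/fl) carry floxed alleles of Mfsd2a, the transporter for lysophosphatidylcholine, and 2aOKO mice carry the same alleles with a Pdgfra-cre transgene, so that both genotypes share the floxed gene and differ in Cre. Each sort had 3 libraries of 2afl/fl and 4 of 2aOKO, which gives 14 libraries in 4 groups. Pdgfra is also expressed outside the oligodendrocyte lineage, in meningeal fibroblasts for example, so neither the Cre driver nor the OPC beads are restricted to OPCs.

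The deposited values are read counts per gene after median-ratio scaling, called normalised counts here. They are not scaled to gene length, so levels are compared between groups and never between genes. Library totals ran from 34100000 to 41000000 normalised counts, and the 70 genes together held 0.49% to 0.628% of a library. Mfsd2a itself was read at 7585, 7979 and 16343 normalised counts in 2afl/fl OPCs and at 7055, 7188, 3665 and 6843 in 2aOKO OPCs. In the O4 sort the values were 6762, 7777 and 12885 in 2afl/fl and 7101, 6536, 3615 and 6596 in 2aOKO. The genotypes were apart in OPCs and overlapped in O4 cells, and libraries numbered 3 held the highest control value and the lowest 2aOKO value in both sorts. Its log2 difference was -0.74 in OPCs (95% interval -1.42 to -0.06, unadjusted p = 0.036, limma) and -0.61 in O4 cells (-1.29 to 0.08, unadjusted p = 0.077), with an adjusted p of 1.0 in each. Counts over the whole gene include reads outside the deleted part, so they check the genotype labels only in part.

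The 8 myelin genes and the 9 genes of committed and newly formed oligodendrocytes were all higher in O4 cells in both genotypes, and of 10 OPC markers 6 were lower in 2afl/fl and 7 in 2aOKO. Gpr17, a receptor of precursors that are about to differentiate, was the 1 OPC marker that was higher in O4 cells (log2 0.86 in 2afl/fl and 1.01 in 2aOKO). On the first principal component, library 2 of the 2afl/fl O4 group stood between both sorts, at 13.96 (the component held 48.7% of the variance), against 49.0 and 53.0 for the other O4 libraries of that genotype. Microglial markers also moved with the sort. Of 10, 8 were higher in O4 cells in 2afl/fl and 9 in 2aOKO, and their sum ran from 3147 to 4983 normalised counts in 2afl/fl OPCs, 3596 to 4265 in 2aOKO OPCs, 7308 to 11748 in 2afl/fl O4 cells and 7702 to 11785 in 2aOKO O4 cells. Of 8 meningeal fibroblast markers 7 were lower in O4 cells in both genotypes, with sums of 56401 to 72641 and 45109 to 61096 in the OPC sorts against 22158 to 36726 and 19561 to 31024 in the O4 sorts. Of 9 astrocyte markers 4 were higher in O4 cells in both genotypes (Aqp4, Aldh1l1, Agt and Gfap, at 1.40 to 1.84 on the log2 scale) and Gjb6 was lower (-0.98 and -0.86). Their sums overlapped between the sorts, at 40813 to 45532 and 44631 to 46839 in the OPC sorts and 36496 to 55307 and 44498 to 56122 in the O4 sorts. Of 10 excitatory neuron, 8 interneuron progenitor, 6 pericyte and 10 endothelial markers tested at most 2 of a list were called in a genotype. The neuron sums were still apart between the sorts in both genotypes. Excitatory neuron sums were 496 to 563 and 525 to 690 in the OPC sorts. In the O4 sorts they were 686 to 1582 and 823 to 1403. Interneuron progenitor sums were 1812 to 2099 and 1817 to 2204 in the OPC sorts and 1084 to 1728 and 1210 to 1588 in the O4 sorts. No microglial, fibroblast or astrocyte marker was at 0 in any library. The part of these cells and of neurons in the sort comparison was not tested. In bulk samples fewer cells of a type and less RNA per cell cannot be told apart.

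The question of the first comparison was which guidance genes differ between precursors and O4-positive cells. In 2afl/fl mice 11 of the 70 genes were higher in O4 cells and 18 were lower at an adjusted p under 0.05 (limma, Benjamini-Hochberg over all genes tested), against 14.3% and 12.2% of all genes. In 2aOKO mice 12 were higher and 21 lower, against 17.6% and 15.5% of all genes. In both genotypes 10 genes rose and 18 fell (12.6% and 10.5% of all genes), and none was called in opposite directions. The sorts did not overlap for 28 of the 70 genes in 2afl/fl, against 34.1% of all genes, and for 36 in 2aOKO, against 40.5%. The median log2 fold change of the 70 genes was -0.17 in each genotype, against -0.01 in 2afl/fl and -0.02 in 2aOKO over all genes tested. Receptors held most of the decline. Of 33 receptors 12 fell and 4 rose in both genotypes, with medians of -0.30 and -0.26, whereas of 37 ligands 6 fell and 6 rose, with medians of -0.06 and -0.02. Whether ligands and receptors differ was not tested.

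**Figure D1:**
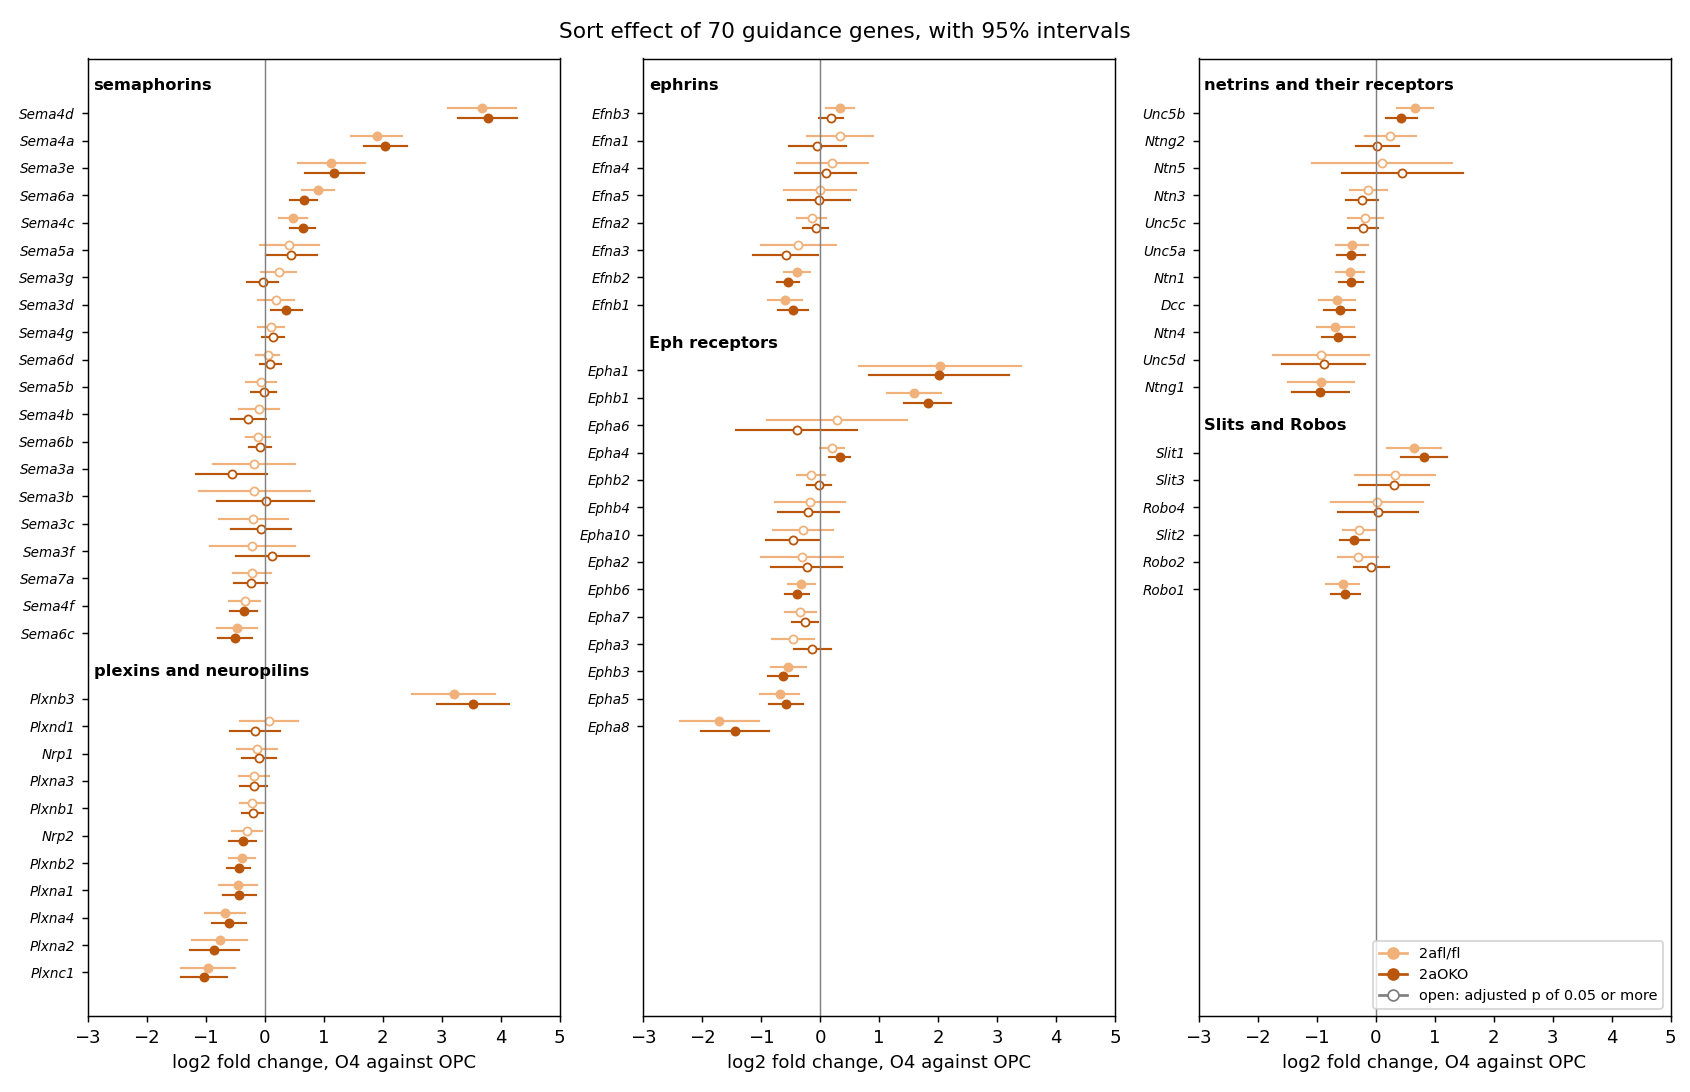
Log2 fold change of each of the 70 guidance genes between O4 and OPC sorts, with 95% intervals from limma, for 2afl/fl (light) and 2aOKO (dark), grouped by family. Filled points have an adjusted p under 0.05. Sema4d and Plxnb3 lie between 3.20 and 3.78, Sema4a, Epha1 and Ephb1 between 1.59 and 2.05, and the called plexins other than Plxnb3 between -0.39 and -1.03.

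The upstream sequences of 4 genes are shown as examples of both directions: Plxnb3 and Ephb1 rose in O4 cells, and Plxnc1 and Epha8 fell. Sema4d and Sema4a rose more than Ephb1 and are not shown. Each run is the 250 bases before the annotated start, 5′ to 3′ on the strand of the gene, from the RefSeq promoter table of build GRCm38.p6. Capitals mark matches on either strand to ACAAAG or ACAATG, core letters bound by SOX factors, a family that includes Sox10 of the oligodendrocyte lineage.
Plxnb3: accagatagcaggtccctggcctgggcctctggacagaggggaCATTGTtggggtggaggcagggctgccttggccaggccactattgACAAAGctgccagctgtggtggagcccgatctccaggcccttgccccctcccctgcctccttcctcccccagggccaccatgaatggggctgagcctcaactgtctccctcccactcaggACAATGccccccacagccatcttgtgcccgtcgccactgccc
Ephb1: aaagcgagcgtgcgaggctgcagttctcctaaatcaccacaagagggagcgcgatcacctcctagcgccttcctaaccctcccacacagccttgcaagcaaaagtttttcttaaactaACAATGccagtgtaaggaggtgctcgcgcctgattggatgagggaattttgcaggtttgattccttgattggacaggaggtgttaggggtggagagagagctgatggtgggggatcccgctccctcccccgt
Plxnc1: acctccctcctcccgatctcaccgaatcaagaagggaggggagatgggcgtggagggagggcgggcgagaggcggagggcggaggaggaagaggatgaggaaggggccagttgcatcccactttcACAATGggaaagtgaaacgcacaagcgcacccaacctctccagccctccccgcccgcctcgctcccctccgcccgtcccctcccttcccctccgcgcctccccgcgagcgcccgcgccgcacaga
Epha8: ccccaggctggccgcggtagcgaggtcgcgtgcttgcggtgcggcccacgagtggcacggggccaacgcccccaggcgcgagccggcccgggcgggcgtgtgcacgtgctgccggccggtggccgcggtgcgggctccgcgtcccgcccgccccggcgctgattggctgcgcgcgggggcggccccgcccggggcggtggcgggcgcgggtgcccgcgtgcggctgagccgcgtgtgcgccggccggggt
The positions are chrX:73756853-73757102, plus strand, chr9:102354694-102354943, minus strand, chr10:94944846-94945095, minus strand and chr4:136956817-136957066, minus strand. Plxnb3 held 3 matches, Ephb1 and Plxnc1 held 1 each, and Epha8 held 0. Of the 70 genes 60 had an entry, with 76 windows of this length, and 15.8% of these windows held such a match, against 25.2% of all 32851 windows in the table. Among genes higher in O4 cells in both genotypes 4 of 14 windows, from 8 genes, held it. Among genes lower in both it was 2 of 16 windows, from 14 genes. The GC box letters GGGCGG, also on either strand, lay in 69.7% of member windows and in 32.7% of all windows, with 4 matches in Plxnc1, 6 in Epha8 and 0 in Plxnb3 and Ephb1. G and C made up 65.2% of the Plxnb3 run, 54.0% of that of Ephb1, 68.8% of that of Plxnc1 and 84.0% of that of Epha8, against a median of 52.4% over all windows. A match describes letters and is not evidence that a factor binds there.

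Semaphorins were the family with the largest rises. Of 20 genes 5 rose and 1 fell in 2afl/fl, and 6 rose and 2 fell in 2aOKO. Of all genes 14.3% rose and 12.2% fell in 2afl/fl, and 17.6% and 15.5% in 2aOKO. Sema4d (chromosome 13, 51839565 to 51947715, mm39), a transmembrane ligand of Plxnb1 that is known from T cells and from oligodendrocytes, was read at 1077, 1074 and 1164 normalised counts in 2afl/fl OPCs and at 15747, 8025 and 22663 in O4 cells. In 2aOKO it stood at 1060.5, 1076, 1027 and 1122 in OPCs and at 16583, 13351, 19532 and 11003 in O4 cells. Every O4 library lay far above every OPC library, and the 2afl/fl O4 library 2 was the lowest of the O4 libraries. The fold change was 12.8 in 2afl/fl (log2 3.68, SE 0.27, adjusted p = 1.0e-06) and 13.8 in 2aOKO (log2 3.78, SE 0.23, adjusted p = 1.0e-07).

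Sema4a, a close relative of Sema4d with a known role in immune cells and retina, had 412, 436 and 435 normalised counts in 2afl/fl OPCs and 1834, 1050.3 and 2107 in O4 cells. The 2aOKO libraries had 434, 446, 434 and 463 in OPCs and 2027, 1773, 2208 and 1441 in O4 cells. The OPC libraries were tight in both genotypes, and no O4 library came near them. The log2 fold change was 1.90 in 2afl/fl (adjusted p = 2.4e-05) and 2.05 in 2aOKO (adjusted p = 1.7e-06). Sema4c, a Plxnb2 ligand of the same class, rose less, from 1906 ± 230.4 to 2679 ± 409.9 (mean and SD, n = 3) in 2afl/fl and from 1801 ± 99.1 to 2813 ± 156 (n = 4) in 2aOKO. Its groups did not overlap, and the log2 fold changes were 0.49 and 0.64.

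Sema3e, the class 3 semaphorin that binds Plxnd1 without a neuropilin, was low in OPCs at 164, 151 and 160.2 normalised counts in 2afl/fl and 171, 171, 153 and 148 in 2aOKO. In O4 cells it had 319, 229.6 and 574 and 437, 365, 429 and 259. The sorts were apart in both genotypes, and the O4 libraries spread more widely than the OPC libraries. The log2 fold change was 1.13 (adjusted p = 0.0075) and 1.18 (adjusted p = 0.0015). Its receptor gene Plxnd1 was not called, at 0.08 (-0.41 to 0.57) in 2afl/fl and -0.16 (-0.58 to 0.27) in 2aOKO.

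Sema6a, a transmembrane ligand of Plxna2 and Plxna4 with a known role in oligodendrocyte differentiation, went from 7032, 7295 and 6926 normalised counts in 2afl/fl OPCs to 12917, 11222 and 16242 in O4 cells. In 2aOKO the values were 7309, 6949.8, 6990.0 and 8177 in OPCs and 12292, 10102, 13457 and 10785 in O4 cells. Both genotypes had their sorts apart. The rise was 1.88-fold in 2afl/fl (log2 0.91, adjusted p = 0.00022) and 1.58-fold in 2aOKO (log2 0.66, adjusted p = 0.00049), and the difference between them, -0.25 (-0.61 to 0.10), was not called. Sema6c was the semaphorin that fell in both genotypes, from 1052 ± 116 to 764 ± 133 in 2afl/fl and from 1101 ± 69.6 to 783 ± 149.6 in 2aOKO, with log2 fold changes of -0.47 and -0.51. Sema6b and Sema6d were not called, with log2 values of -0.12 and -0.08 for Sema6b and 0.05 and 0.10 for Sema6d.

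**Figure D2:**
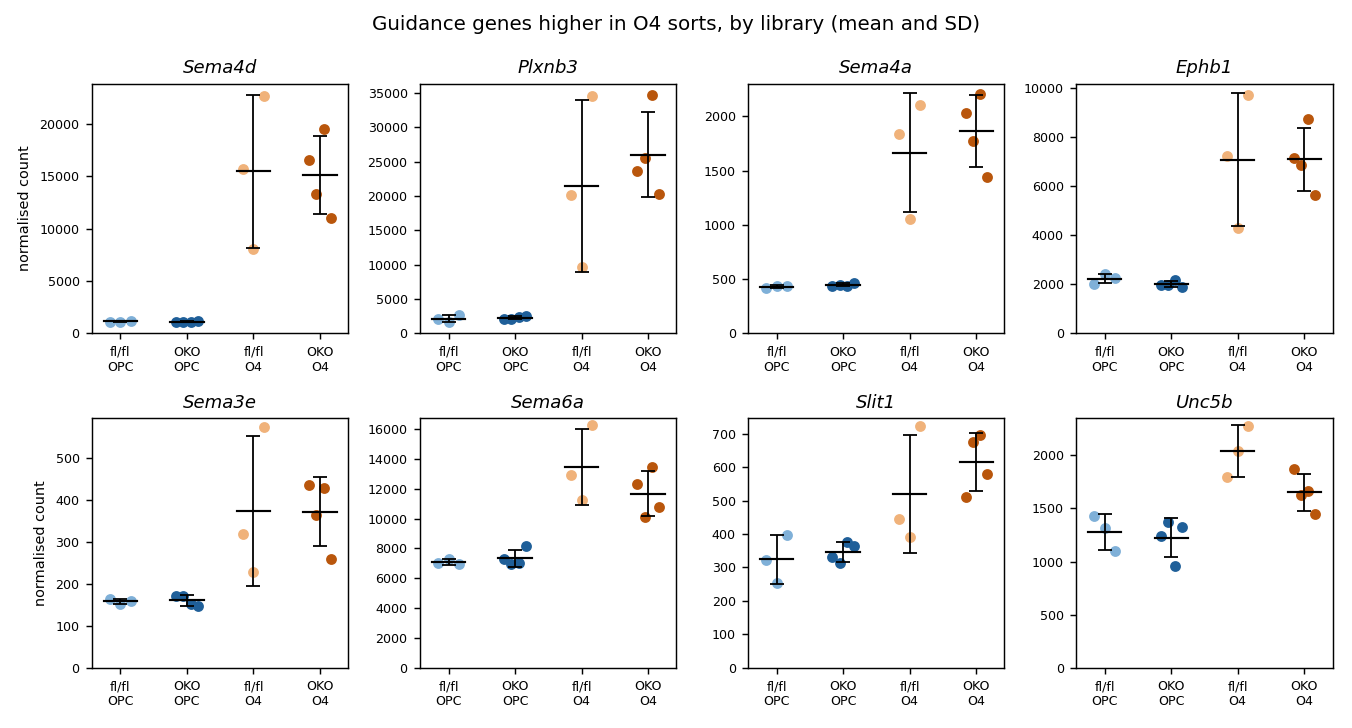
Normalised counts of 8 guidance genes that were higher in O4 cells in both genotypes, per library, with the mean and SD of each group (n = 3 for 2afl/fl and 4 for 2aOKO, linear axes from 0). Sema4d lies between 1027 and 1164 in the OPC libraries and between 8025 and 22663 in the O4 libraries, and in Slit1 the 2afl/fl groups overlap.

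The other textbook semaphorins of OPC migration gave no call in the unpaired comparison or gave it in 2aOKO. Sema3a, which repels OPCs, had 200.4, 251 and 240.3 normalised counts in 2afl/fl OPCs and 204, 275 and 149.6 in O4 cells, with 212, 238, 166 and 276 and 158, 195, 76.2 and 206 in 2aOKO. Sema3f, described as an attractant for OPCs, had 374, 175 and 199 and 271, 191 and 163 in 2afl/fl and 249.5, 226, 210.1 and 209 and 402, 259.6, 136 and 249.9 in 2aOKO. The sorts overlapped for both genes in both genotypes. With the replicate number as a block Sema3a was called lower in 2aOKO O4 cells (log2 -0.56, adjusted p = 0.029, against 0.14 without the block). Sema3d was called higher in 2aOKO (log2 0.37, adjusted p = 0.032) and not in 2afl/fl (0.20, adjusted p = 0.34), and Sema4f was called lower in 2aOKO (-0.35) beside -0.34 in 2afl/fl. For neither gene was the difference between genotypes called, at 0.17 (-0.23 to 0.58) and -0.01 (-0.37 to 0.34).

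Sema5a, a ligand of Plxnb3 and Plxna1, was abundant, at 18912, 14048 and 24039 normalised counts in 2afl/fl OPCs and 21837, 17967 and 38971 in O4 cells. In 2aOKO it had 20481, 18343, 24661 and 24440.2 and 30405, 28783, 32779 and 27776. The 2afl/fl sorts overlapped, the 2aOKO sorts did not, and the O4 library was above its same-numbered OPC library in all 7 pairs. The log2 fold changes of 0.42 and 0.45 were not called in the unpaired comparison (adjusted p = 0.21 and 0.1) and were called with the replicate block (adjusted p = 0.014 and 0.0033).

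Plexins and neuropilins, the semaphorin receptors, mostly fell. Of 11 genes 5 fell and 1 rose in 2afl/fl, and 6 fell and 1 rose in 2aOKO. Over all genes 12.2% fell and 14.3% rose in 2afl/fl, and 15.5% and 17.6% in 2aOKO. The gene that rose was Plxnb3 (chromosome X, 72800709 to 72816117), a plexin known to be enriched in oligodendrocytes. It was read at 2011, 1609 and 2661 normalised counts in 2afl/fl OPCs and at 20148, 9667 and 34576 in O4 cells. The 2aOKO libraries held 2099, 1985, 2284 and 2493 in OPCs and 23662, 25511, 34736 and 20274 in O4 cells. No O4 library overlapped an OPC library, and the 2afl/fl O4 library 2 was again the lowest. The rise was 9.21-fold in 2afl/fl (log2 3.20, SE 0.33, adjusted p = 1.9e-05) and 11.6-fold in 2aOKO (log2 3.53, SE 0.29, adjusted p = 1.0e-06).

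The other class B plexins, Plxnb1 and Plxnb2, moved the other way or gave no call. Plxnb1, the Sema4d receptor, had 10036, 9483 and 12182 normalised counts in 2afl/fl OPCs and 8412, 9519.8 and 9379 in O4 cells, with 10991, 10692, 11979 and 11954 and 9310.0, 9328, 10168 and 10768 in 2aOKO. Its sorts overlapped in both genotypes. The log2 value of -0.21 in each genotype was not called (adjusted p = 0.13 and 0.073), and with the block it was called in 2aOKO (adjusted p = 0.031). Plxnb2 fell from 11229 ± 833 to 8614 ± 1038 in 2afl/fl and from 11805 ± 576 to 8743 ± 984 in 2aOKO, a log2 change of -0.39 and -0.44.

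Plxnc1, the receptor of Sema7a, fell most among the plexins. It had 4506, 4839 and 5430.2 normalised counts in 2afl/fl OPCs and 1880.1, 3845 and 2229 in O4 cells, and 4762, 4578, 5555 and 5671 and 2495, 2458, 1999.5 and 3234 in 2aOKO. The sorts were apart in both genotypes, with the 2afl/fl O4 library 2 nearest to the OPC libraries. The level in OPCs was 1.94 times that in O4 cells in 2afl/fl (log2 -0.96, adjusted p = 0.0053) and 2.04 times in 2aOKO (log2 -1.03, adjusted p = 0.00082). Sema7a itself was not called, at -0.22 and -0.24.

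The class A plexins, which take class 3 signals with a neuropilin and class 6 signals alone, were lower in O4 cells for Plxna1, Plxna2 and Plxna4. Plxna2 had 3364, 4263 and 3881 normalised counts in 2afl/fl OPCs and 1585, 3527 and 2026 in O4 cells, and 3775, 4008, 4214 and 4775 and 2229, 2446, 1855 and 2835 in 2aOKO. The 2afl/fl groups overlapped through O4 library 2 and the 2aOKO groups did not, and the log2 changes were -0.77 (adjusted p = 0.02) and -0.85 (adjusted p = 0.0036). Plxna4 had 2538, 2905 and 3304 and 1415, 2307 and 1826 in 2afl/fl and 2734, 2472, 3244 and 3262 and 1994, 1782, 1764 and 2121 in 2aOKO. Its sorts were apart in both genotypes, with log2 changes of -0.68 and -0.61. Plxna1 fell by 0.45 in 2afl/fl and by 0.43 in 2aOKO on the log2 scale, and Plxna3 was below its OPC partner in all 7 pairs but called only with the block and only in 2aOKO (-0.19, adjusted p = 0.039).

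Neuropilins, the co-receptors of class 3 semaphorins, moved little. Nrp1 had 3008, 2389.6 and 2082 normalised counts in 2afl/fl OPCs and 2169, 2822 and 1879 in O4 cells, and 2571, 2656, 2124 and 2511 and 2590.0, 2424, 1940.4 and 2307 in 2aOKO, with all groups overlapping. Its log2 change was -0.13 (-0.46 to 0.21) in 2afl/fl and -0.09 (-0.38 to 0.20) in 2aOKO. Nrp2 had 1899.9, 1742 and 1911 and 1418, 1796 and 1319 in 2afl/fl and 1854, 2008, 1923 and 2008 and 1599, 1605, 1224 and 1612 in 2aOKO. The sorts were apart in 2aOKO only, where the change of -0.38 was called (adjusted p = 0.012), beside -0.30 in 2afl/fl (adjusted p = 0.074).

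**Figure D3:**
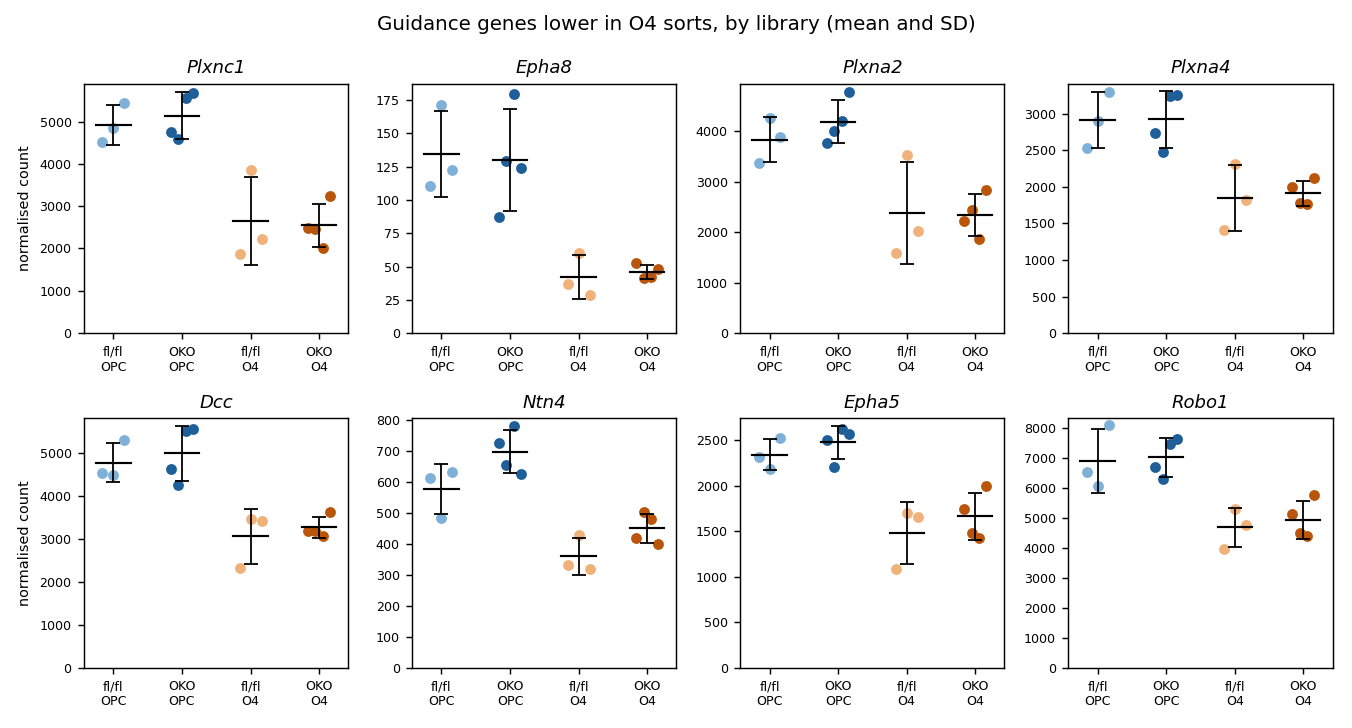
Normalised counts of 8 guidance receptors and ligands that were lower in O4 cells in both genotypes, per library, with the mean and SD of each group (n = 3 for 2afl/fl and 4 for 2aOKO, linear axes from 0). The 2afl/fl O4 library 2, at 3845 for Plxnc1 and 3527 for Plxna2, lies nearest to the OPC libraries.

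Of 11 netrins and netrin receptors 5 fell and 1 rose in each genotype. The shares of all genes were 12.2% and 14.3% in 2afl/fl and 15.5% and 17.6% in 2aOKO. Ntn1, the founding netrin, was read at 11035, 9679 and 13397 normalised counts in 2afl/fl OPCs and at 7757, 9311 and 8023 in O4 cells, and at 11778, 10753, 11838 and 11709 and 8664, 8490.2, 7904 and 9602 in 2aOKO. The sorts did not overlap in either genotype. Its log2 change was -0.43 (adjusted p = 0.011) and -0.41 (adjusted p = 0.0043).

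Dcc (chromosome 18, 71386703 to 72484141), the netrin receptor known to act in OPC dispersal and in the later shaping of myelin, had 4524, 4479.6 and 5299 normalised counts in 2afl/fl OPCs and 2318, 3447 and 3399.9 in O4 cells. The 2aOKO libraries had 4609, 4252, 5501 and 5549.5 in OPCs and 3180.5, 3167, 3062 and 3625 in O4 cells. All O4 libraries lay below all OPC libraries. The log2 change was -0.66 in 2afl/fl (SE 0.14, adjusted p = 0.0047) and -0.60 in 2aOKO (SE 0.12, adjusted p = 0.002). Ntn4, a laminin-like netrin of basement membranes, fell by a like amount, from 576 ± 80.7 to 359 ± 59.9 in 2afl/fl and from 696 ± 69.5 to 449 ± 47.7 in 2aOKO (log2 -0.68 and -0.63). Ntng1, a membrane-anchored netrin-G that does not bind Dcc, was low and fell from 137, 130.2 and 137 to 79.4, 87.0 and 51.1 in 2afl/fl and from 129.9, 131, 136 and 133 to 82.1, 98.2, 55.7 and 50.2 in 2aOKO. Its sorts were apart, with log2 changes of -0.92 and -0.93.

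The Unc5 receptors, which mediate repulsion from netrin, did not move as a group. Unc5b rose, from 1429, 1316 and 1096 normalised counts in 2afl/fl OPCs to 1797, 2042 and 2280.1 in O4 cells and from 1244, 1369.9, 961 and 1323 to 1871, 1623, 1663 and 1449 in 2aOKO. Its O4 libraries were all above its OPC libraries, and the log2 changes were 0.67 (adjusted p = 0.0042) and 0.44 (adjusted p = 0.013). Unc5a fell in both genotypes (-0.40 and -0.42). Unc5d had the largest negative values of the 4 receptors, -0.92 and -0.88, with wide intervals (-1.73 to -0.11 and -1.58 to -0.18), and was called only with the replicate block (adjusted p = 0.014 and 0.0064). Unc5c was called with the block in 2aOKO alone (-0.21, adjusted p = 0.032).

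Of 6 Slits and Robos 1 rose and 1 fell in 2afl/fl, and 1 rose and 2 fell in 2aOKO. Among all genes 14.3% rose and 12.2% fell in 2afl/fl, and 17.6% and 15.5% in 2aOKO. Slit1 had 322, 252 and 398 normalised counts in 2afl/fl OPCs and 445, 391 and 722 in O4 cells, and 332, 313, 377 and 363 and 512, 676, 697 and 579 in 2aOKO. The 2afl/fl groups overlapped and the 2aOKO groups did not, with log2 changes of 0.65 (adjusted p = 0.035) and 0.82 (adjusted p = 0.0036). Slit2 was called lower in 2aOKO (-0.36, adjusted p = 0.025) and, with the block, in 2afl/fl (-0.28, adjusted p = 0.034, against 0.13 without it). Robo1, a Slit receptor, fell from 6527, 6083 and 8122 to 3982, 5311 and 4761 in 2afl/fl and from 6694, 6292, 7467 and 7649 to 5121, 4488, 4388 and 5755 in 2aOKO. Its sorts were apart in both genotypes (log2 -0.56 and -0.51). Robo2 was not called, at -0.30 and -0.07.

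Eph receptors went both ways. Of 14 genes 2 rose and 4 fell in 2afl/fl, and 3 rose and 4 fell in 2aOKO. The background over all genes was 14.3% and 12.2% in 2afl/fl and 17.6% and 15.5% in 2aOKO. Ephb1 (chromosome 9, 101799327 to 102231893) rose from 2013, 2390.5 and 2254 normalised counts in 2afl/fl OPCs to 7224, 4272 and 9686 in O4 cells, and from 1944, 1958, 2154 and 1867 to 7129, 6868, 8723 and 5609.7 in 2aOKO. The sorts were apart, and the OPC libraries of both genotypes kept within a narrow range. The fold change was 3.02 in 2afl/fl (adjusted p = 0.00019) and 3.54 in 2aOKO (adjusted p = 8.6e-06). Epha1, among the 3 members with the lowest mean, had 15.1, 14.6 and 6.32 and 58.1, 26.8 and 76.0 in 2afl/fl and 22.5, 6.18, 1.79 and 10.3 and 28.5, 38.2, 36.4 and 31.7 in 2aOKO. The sorts were apart, and the log2 values of 2.03 and 2.01 had intervals of 0.66 to 3.41 and 0.82 to 3.20.

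Epha8 fell most of all members, from 111, 171 and 122 normalised counts in 2afl/fl OPCs to 36.7, 60.3 and 28.5 in O4 cells and from 86.9, 129, 179.7 and 124 to 52.4, 41.4, 42.1 and 48.1 in 2aOKO. Every O4 library was below every OPC library. The OPC level was 3.26 times the O4 level in 2afl/fl (log2 -1.71, SE 0.31, adjusted p = 0.0018) and 2.71 times in 2aOKO (log2 -1.44, SE 0.27, adjusted p = 0.0011). Epha5, a receptor of A-type ephrins, fell from 2339 ± 171 to 1479 ± 342 in 2afl/fl and from 2473 ± 185 to 1660.0 ± 262 in 2aOKO. Ephb3, which binds B-type ephrins, fell from 3117 ± 278 to 2176 ± 510.1 and from 3325 ± 184 to 2156 ± 271. Both had their sorts apart, and Ephb6, a receptor without kinase activity, fell by 0.32 and 0.39 on the log2 scale.

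Epha4, which binds ephrins of both types, went from 3333, 3098 and 3535 normalised counts in 2afl/fl OPCs to 3490.3, 3557 and 4440.2 in O4 cells and from 3423, 3092, 3420.5 and 3616 to 4355, 3968, 4273 and 4454 in 2aOKO. The groups overlapped in 2afl/fl and were apart in 2aOKO, and the O4 library was the higher of each of the 7 pairs. The change was called in 2aOKO (0.33, adjusted p = 0.0062) and, in 2afl/fl, with the block (0.20, adjusted p = 0.044, against 0.13 without it). Blocking also added lower calls for Epha3 (-0.46, adjusted p = 0.046) and Epha7 (-0.34, adjusted p = 0.04) in 2afl/fl and for Epha10 in 2aOKO (-0.46, adjusted p = 0.034).

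Among the ephrins, the ligands of these receptors, the called genes were all of the B type. Efnb1 fell from 1238, 1382 and 1249.8 normalised counts in 2afl/fl OPCs to 799, 1077 and 714 in O4 cells and from 1199, 1176, 1165 and 1280.2 to 862, 826, 783 and 1048 in 2aOKO. Efnb2 fell from 2335 ± 158 to 1786 ± 237 and from 2478 ± 88.3 to 1708 ± 168. The sorts were apart for both genes in both genotypes, with log2 changes of -0.60 and -0.46 for Efnb1 and -0.39 and -0.54 for Efnb2. Efnb3, a myelin-associated ephrin, had 3456, 3698 and 4116 and 4608, 4253 and 5485 in 2afl/fl and 3644, 3757, 3846 and 3876 and 4588, 3659, 4921 and 4098 in 2aOKO. It was the only member called in 2afl/fl (0.34, adjusted p = 0.034) and not in 2aOKO (0.18, adjusted p = 0.16), and the difference of -0.16 (-0.48 to 0.15) was not called. None of the 5 A-type ephrins was called in either genotype.

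The O4 libraries and OPC libraries can also be compared in pairs, since same-numbered libraries of a genotype moved together. Same-numbered libraries of different genotypes also did so, and differently numbered libraries were not used as a reference. The pairing was read from these same data, so the paired and blocked results depend on it. The O4 library was above its OPC partner in all 7 pairs for 12 members, against 21.3% of all genes, and below it for 24, against 20.8%. In an exact two-sided sign-flip test over the 7 pairs, such a gene has p = 0.0156, which is the smallest this design allows. With the replicate number as a block the calls rose to 13 higher and 22 lower in 2afl/fl and to 13 higher and 27 lower in 2aOKO, and each call of the unpaired fit was among them. Over all genes the calls rose as well, from 2223 higher and 1905 lower to 2706 and 2531 in 2afl/fl and from 2738 and 2407 to 3169 and 2973 in 2aOKO. Sema4d ranged from 2.90 to 4.28 log2 units over the pairs, Plxnb3 from 2.59 to 3.93, Plxnc1 from -1.47 to -0.33 and Dcc from -0.96 to -0.38. The 2afl/fl O4 library 2 weighs on the control comparison: without it 12 members were higher and 25 lower in 2afl/fl, and 3034 and 2846 of all genes. The count of lower members fell from 18 to 10 without the 2afl/fl OPC library 3 and to 10 without the 2afl/fl O4 library 3, while that of all genes fell from 1905 to 1168 and 1286. Without the 2afl/fl library 1 of the OPC or the O4 sort, 13 or 12 members were lower, and 1373 or 1027 of all genes. When the 6 control libraries were fitted alone, Sema4d, Plxnb3, Sema4a, Ephb1, Sema6a and Unc5b stayed higher and Epha8 stayed lower, and no other member was called, while 628 genes were called higher and 220 lower overall. Without the 4 libraries numbered 3, 6 members were higher and 3 lower in 2afl/fl, and 914 and 358 of all genes.

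**Figure D4:**
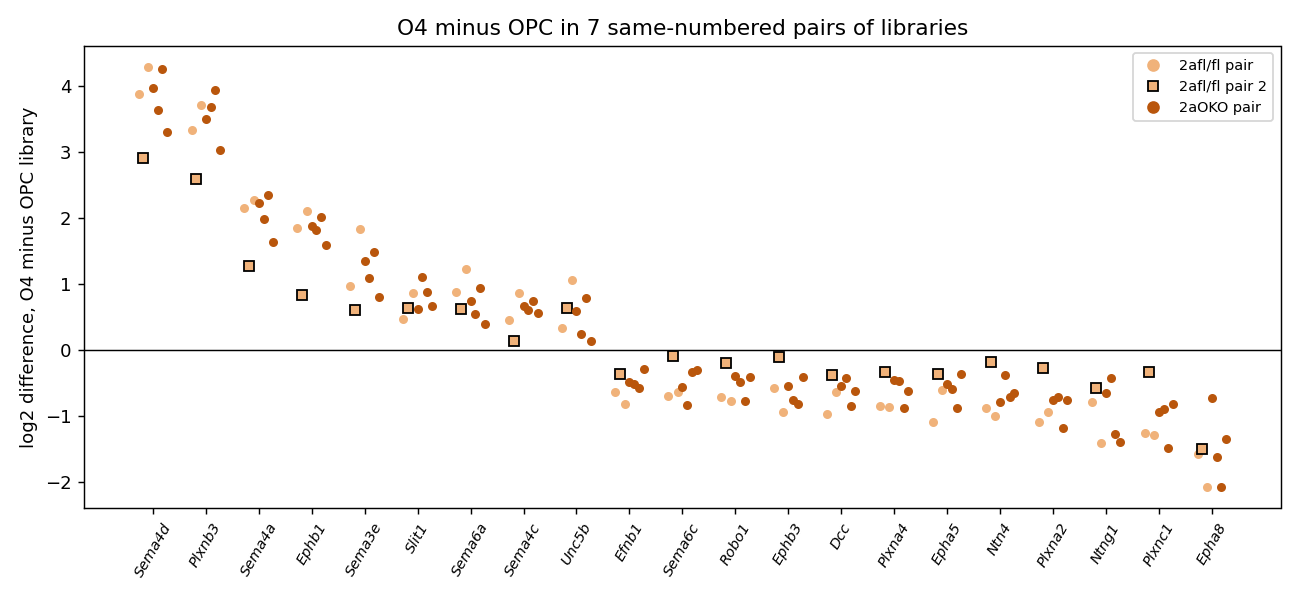
Difference of log2(normalised count + 1) between the O4 and the OPC library of the same number, for 21 genes called in both genotypes, with 3 pairs of 2afl/fl (light, pair 2 as squares) and 4 of 2aOKO (dark). All 7 pairs lie on the same side of 0 for each gene drawn, and pair 2 of 2afl/fl is often the one nearest to 0.

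The second question was whether loss of Mfsd2a in the OPC lineage changed these genes. None of the 70 was called between 2aOKO and 2afl/fl in OPCs, in O4 cells or in the difference of the sort effect, and none of all 15565 genes tested was called either, so 0% is also the background (limma, adjusted p under 0.05). At an unadjusted p under 0.05 the members numbered 0 in OPCs, 4 in O4 cells and 0 in the difference, against 1.61%, 2.89% and 0.848% of all genes. With the replicate number as a block 0 members were called as well. The limit on a change can be given for many genes. The 95% interval lay within 0.5 log2 units of 0 for 40 of the 70 genes in OPCs and for 40 in O4 cells, and the median interval reached 0.31 to either side. In the difference of the sort effect it lay within that bound for 29.

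The 4 genes with p under 0.05 in O4 cells were Efna1, Epha3, Ntn4 and Unc5b. Efna1, an A-type ephrin, had 659, 745 and 424 normalised counts in 2afl/fl O4 cells and 541, 378, 376 and 362 in 2aOKO O4 cells. In OPCs it had 602, 477 and 354 and 505, 499.6, 281 and 450.5. The genotypes overlapped in both sorts. The log2 difference in O4 cells was -0.53 (-1.06 to -0.01, p = 0.046, limma, adjusted p = 1), and an exact two-sided permutation test over 35 splits gave p = 0.143. With the block its unadjusted p was 0.0051, still with no call over all genes.

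Epha3 had 141, 170.3 and 133 normalised counts in 2afl/fl and 171, 232, 184 and 206 in 2aOKO O4 cells. It was the only member whose genotypes did not overlap in O4 cells, against 2.67% of all genes (log2 0.42, 0.09 to 0.75, unadjusted p = 0.017, limma). Ntn4 was higher in 2aOKO by 0.33 (0.03 to 0.63) in O4 cells and by 0.28 (-0.02 to 0.57) in OPCs, with groups that overlapped in both. Unc5b was lower in 2aOKO O4 cells by -0.30 (-0.59 to -0.02), and its value in OPCs was -0.07 (-0.35 to 0.21). The exact permutation test gave p = 0.0571 for Epha3, 0.143 for Ntn4 and 0.0857 for Unc5b in O4 cells, where 3 against 4 libraries cannot go below 0.0286.

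In OPCs the smallest p values belonged to Ntn4, Epha10 and Sema4b. Sema4b had 299.6, 352 and 333 normalised counts in 2afl/fl and 386, 375, 409 and 419 in 2aOKO, and was the only member apart between genotypes there, against 4.75% of all genes (log2 0.28, -0.05 to 0.60). Epha10 had 322, 257 and 420.5 and 370.2, 384, 593 and 439, a log2 difference of 0.42 (-0.06 to 0.91), with overlap. Genotype values follow for Sema4d and Plxnb3, which rose most between sorts, and for Dcc. The O4 value of Plxnb3 was the highest of the 70 members. Sema4d differed by -0.04 (-0.58 to 0.50) in OPCs and 0.06 (-0.48 to 0.60) in O4 cells, and Plxnb3 by 0.11 (-0.55 to 0.76) and 0.44 (-0.22 to 1.09). Dcc differed by 0.06 (-0.23 to 0.34) and 0.11 (-0.17 to 0.40). An interval that holds 0 is no evidence of equal levels.

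**Figure D5:**
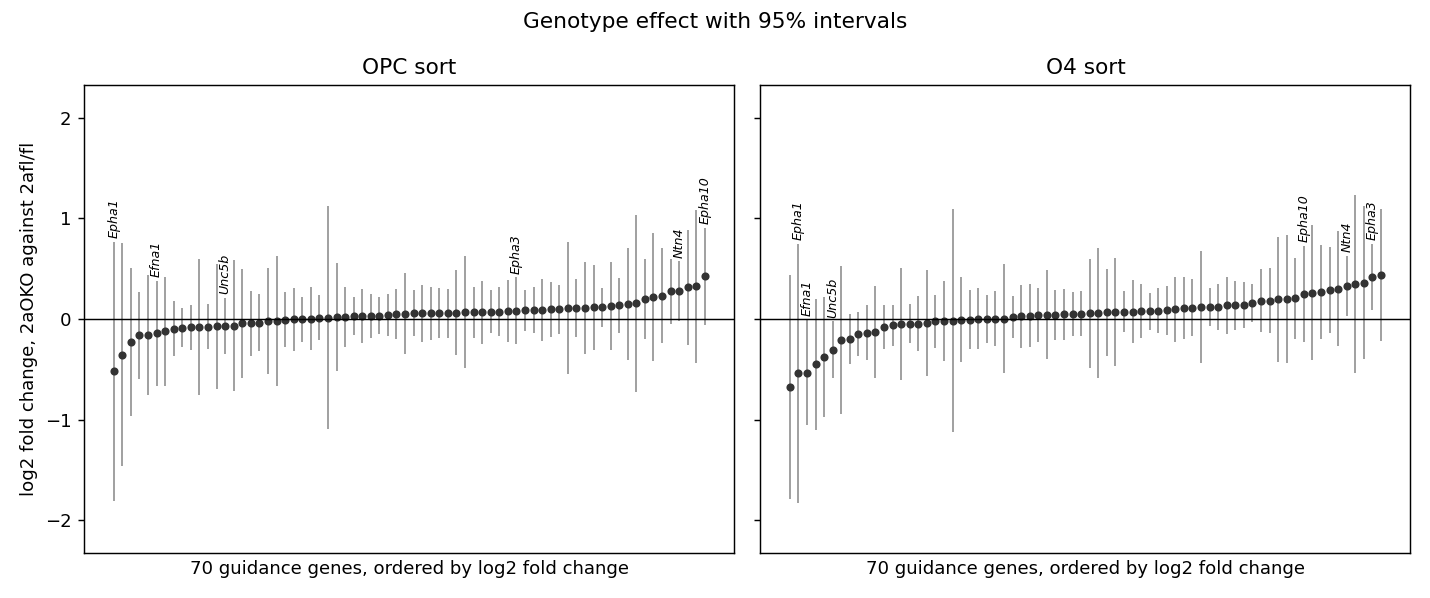
Log2 fold change of the 70 guidance genes between 2aOKO and 2afl/fl in the OPC sort (left) and the O4 sort (right), each ordered by its value, with 95% intervals from limma. No gene reached an adjusted p under 0.05, and the 4 genes with an unadjusted p under 0.05 in O4 cells (Efna1, Unc5b, Ntn4 and Epha3) are labelled together with Epha1 and Epha10.

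For 8 members, some of them known from blood vessels, library 3 was the lowest of its group in every group. They were picked by this position and do not stand for vessel genes as a class. Robo4, the endothelial Robo, had 991, 948 and 499 normalised counts in 2afl/fl OPCs, 887, 858, 416 and 608 in 2aOKO OPCs, 843, 1169.9 and 501 in 2afl/fl O4 cells and 888, 827, 418 and 713 in 2aOKO O4 cells. Library 3 was the lowest of its group in all 4 groups. Ephb4, the venous Eph receptor, had 563, 676 and 455, then 599, 776, 488 and 648, then 549, 608 and 365 and 554, 789.6, 321 and 598 in the same order of groups. Library 3 was again the lowest of each. The same held for Plxnd1, Nrp1, Epha2, Sema3b, Sema3c and Sema7a, which makes 8 of 70 members (11.4%) against 5.35% of all genes. The summed level of 10 endothelial markers, none of which was called between sorts, was 27345, 28048 and 18721 in 2afl/fl OPCs and 26481, 29744, 16886 and 23833 in 2aOKO OPCs. In O4 cells it was 26627, 35694 and 19149 in 2afl/fl and 27412, 27105, 15628 and 21935 in 2aOKO. Library 3 held the lowest endothelial sum in each group as well, and the part of endothelial cells in these members was not tested. None of the 8 genes was called between the sorts or the genotypes.

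The signalling partners of these ligands and receptors also went both ways. Of 55 intracellular effectors of guidance signalling 17 rose and 12 fell in 2afl/fl, and 18 rose and 16 fell in 2aOKO, against the 14.3% and 12.2%, and 17.6% and 15.5%, of all genes given above. Their median log2 fold change was -0.06 in 2afl/fl and -0.10 in 2aOKO. Effectors with small p that rose included Chn2, a Rac GTPase-activating protein (log2 3.59 and 3.63 in 2afl/fl and 2aOKO) and Rnd2, a small GTPase (2.54 and 2.59). Others were Gipc1, an adaptor that binds Nrp1 (1.97 and 2.12), Fyn, the Src family kinase that acts in myelination (1.90 and 2.12), and Dpysl2, which carries the semaphorin signal to microtubules (1.41 and 1.18). Those that fell included Dpysl3, a relative of Dpysl2 (-0.69 and -0.67), Farp1, a Rac exchange factor (-0.56 and -0.49), and Srgap2, a Slit-Robo GTPase-activating protein (-0.57 and -0.58).

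Of 34 co-receptors, other cues and their receptors 8 rose and 9 fell in 2afl/fl, and 9 rose and 11 fell in 2aOKO, against 14.3% and 12.2%, and 17.6% and 15.5%, of all genes. Draxin, a secreted netrin antagonist that binds Dcc, fell most (-2.11 and -2.20 on the log2 scale). Chl1, an adhesion molecule of the L1 family (-0.84 and -0.86), and Gas1 and Cdon, co-receptors of Hedgehog signalling (-0.72 and -0.81 for Gas1, -0.51 and -0.59 for Cdon), also fell. Rtn4, which encodes the myelin inhibitor Nogo (1.04 and 1.16), and the repulsive guidance molecules Rgmb (0.86 and 1.04) and Rgma (0.33 and 0.36) rose. No effector or co-receptor was called between genotypes.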

How the data were processed

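STAR 2.7.8a aligned the reads to mm39, and Partek Flow 10 counted them against RefSeq genes, as the submitters' notes and the study's methods state. What the authors deposited is a signal per gene and library, namely the gene count over a median-ratio size factor, without scaling to gene length. Whether counting used strand is not given in the sources used here. Tables of the authors' own DESeq2 comparisons hold fold changes, ratios and p-values and were not used. Groups came from the labels, with 3 libraries of 2afl/fl and 4 of 2aOKO in each sort and 900 ng of RNA per library. The study counts its replicates as animals and gives 3 to 4 per genotype for this experiment, which matches the number of libraries. The labels do not name the mouse of a library, nor whether same-numbered OPC and O4 libraries come from 1 mouse.

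The fit took 15565 of 18355 genes. The other 2790 had means under 10. limma 3.58.1 (R 4.3.3, data.table package 1.17.8) estimated 1 mean per group from log2(value + 1) of the 14 libraries together, with the variance trended on intensity. All p-values are two-sided and were adjusted by Benjamini-Hochberg over every gene in the fit. Fold changes are on the log2(value + 1) scale, which understates changes of low genes. Single genes were also tested by exact permutation over 35 splits of 3 against 4 libraries, or by sign flips over 7 pairs. On simulated data for the sort comparison in 2afl/fl (15565 genes, 50 changed per fold size), 82%, 64%, 74% and 86% of genes set to log2 changes of -2, -1, 1 and 2 were recovered, with 6 false calls. The simulation gave each gene 1 spread in all groups, drew libraries independently and changed a far smaller share of genes than was called in the data. In the data same-numbered libraries moved together, some genes spread more in O4 libraries, and 26.5% of all genes were called in this comparison. These rates may therefore not hold there.

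Whole reads were not taken as recovered. Of the low values (up to 20), 93.3% to 95.0% lay within 0.05 of a whole multiple of the library's value of 1 read, which puts the depth at an estimated 32900000 to 44100000 reads. Same-numbered libraries deviated together from their group means. The correlation was 0.33 to 0.48 in 7 pairs of OPC and O4 libraries, 0.17 to 0.38 between genotypes in 3 OPC pairs and 0.12 to 0.49 in 3 O4 pairs. The numbers were therefore taken to pair the libraries, from the data and not from the labels, and blocked values are given where they change a call. Alternatives were the block, other pseudocounts, filters and scalings, a fit of the compared groups alone, no intensity trend, the study's threshold and leaving out libraries.

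The members and all lists were chosen with earlier results of these data known. Values are given for members called in both genotypes with a mean of at least 50 (up to 12 per direction), for the 3 smallest p-values in each genotype comparison and in the difference of the sort effect, for Efna1, which the study names, and for members with a textbook role in OPC migration or myelination. Genes of the signalling lists are named by smallest p, up to 6 per direction, and 1 of them is not reported here. Upstream sequences come from the RefSeq promoter table of GRCm38.p6, which held 60 of the 70 members, and gene positions come from the deposited table in mm39. Upstream windows of 250 bases were searched on both strands. Figures were drawn with matplotlib 3.10.9 and pandas 2.3.3 in Python 3.11.15.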

Additional observations from a re-analysis of the deposited data

Results flagged for a closer look

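Among 72 groups of 4 libraries looked at, 4 held a library far from the other 3, with a gap over range above Dixon's critical value, which chance exceeds in about 1 in 20 groups. Efna1 had 541 normalised counts in 2aOKO O4 library 1, the highest of its group, against 378 for the next library and 362 at the other end. Nrp2 had 1224 in 2aOKO O4 library 3, the lowest of its group, against 1599 and 1612. Sema6c had 997 in 2aOKO OPC library 1, also the lowest, against 1128 and 1146. Ntn1 had 10753 in 2aOKO OPC library 2, the lowest of its group, against 11709 and 11838.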

How the results depend on the processing

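With the replicate block 13 members were higher and 22 lower in 2afl/fl, and 13 higher and 27 lower in 2aOKO, and 0 were called between genotypes. Fitted on the compared groups alone, 2afl/fl had 6 higher and 1 lower, and without the 4 libraries numbered 3 it had 6 and 3. With the block and without both 2afl/fl libraries numbered 2, chosen after seeing the data, 31 were lower in 2afl/fl. Of all genes 3234 were lower there, against 1905 in the main fit. At the fold and unadjusted p threshold of the study, 3 members passed between genotypes in O4 cells and 0 in OPCs. The share of all genes at that threshold is not given here. At an unadjusted p under 0.05 alone it was 2.89% in O4 cells (limma). The cause of these shifts was not tested. Leaving out each library in turn gave 8 to 12 higher and 10 to 25 lower in 2afl/fl, 11 to 13 higher and 18 to 23 lower in 2aOKO, and 0 in every genotype comparison. Over all genes these fits ranged from 1430 to 3034 higher and 1027 to 2846 lower in 2afl/fl. In 2aOKO they ranged from 2007 to 3057 higher and 1814 to 2717 lower. Scaling to equal totals moved the median of all genes to -0.12 in 2afl/fl and -0.13 in 2aOKO, with 1575 genes higher and 2974 lower in 2afl/fl (2223 and 1905 as deposited) and 1888 and 3707 in 2aOKO (2738 and 2407). Quantile normalisation gave 2007 and 2361 in 2afl/fl and 2413 and 2943 in 2aOKO. With equal totals 10 members were higher and 24 lower in 2afl/fl and 10 and 27 in 2aOKO. The 10 higher members in 2aOKO were all among the 12 of the main fit. Among the genes recomputed singly, which are not all members, Efnb3 in 2afl/fl and Unc5b in 2aOKO lost their calls. Of the recomputed values of named genes 1926 kept their sign and their side of the threshold, 42 gained a call, 64 lost it and 15 changed sign. The genes that changed sign had no call before, and each changed when libraries were left out. Without the 4 libraries numbered 3, Sema4b stood at 0.074 and Sema3a at 0.077 in 2afl/fl. Leaving out single libraries moved the 2afl/fl values from -0.22 to 0.063 for Sema4b, -0.39 to 0.044 for Sema3a, -0.42 to 0.12 for Sema3f and -0.29 to 0.017 for Nrp1. In 2aOKO they ran from -0.15 to 0.020 for Sema3g, -0.24 to 0.038 for Efna1 and -0.11 to 0.41 for Sema3f. Low values limit Ntn5, Epha6 and Epha1, the 3 members with the lowest means.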

Other observations

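Sort effects of the 70 genes in 2afl/fl and 2aOKO, which share no library, had a Pearson correlation of 0.979 and a Spearman correlation of 0.912 across genes, against 0.875 and 0.814 over all 15565 genes. These are descriptions across genes, which are not independent replicates. Library 3 was the highest of its group in all 4 groups for Plxna3, Sema4g, Sema5a, Sema5b and Slit1, 7.14% of the members against 5.2% of all genes. Library 1 was the highest in all 4 for Sema3b, Sema3c and Sema3f, 4.29% against 2.89%.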
